A study of Drosophila melanogaster with 42 samples.

Results

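The regions bound by MOF in Drosophila melanogaster embryos were compared between 11-12 h and 3-4 h of development. The members were all regions of the 2 peak lists deposited for MOF, 613 at 11-12 h and 517 at 3-4 h, or 1130 of the 18571 regions in the 12 lists of the study. A region was kept if at least 1 bp of it lay in a region of the other stage, gained if it was found at 11-12 h only, and lost if it was found at 3-4 h only. The study holds 42 ChIP-seq samples of whole embryos, 26 of ChIP and 16 of input, with MOF in 3 samples per stage. MOF was precipitated from formaldehyde-fixed chromatin cut with micrococcal nuclease (MNase), at 2.9 units per g of embryos for 11-12 h and 0.9 units per g for 3-4 h, doses that the protocol chose for a similar degree of digestion. Stage and nuclease dose therefore cannot be told apart. The labels give no sex, strain or genotype of the embryos.

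MOF is the histone acetyltransferase that places acetyl groups on lysine 16 of histone H4 (H4K16ac). In flies it works in the MSL complex, with MSL1, MSL2, MSL3, the helicase MLE and the roX RNAs, which binds the single X of males, is carried from high-affinity sites into the bodies of active genes and raises their transcription, the process called dosage compensation. It also works in the NSL complex, which sits at the promoters of broadly expressed genes on every chromosome in both sexes. MSL2 is made in males only and marks the first of these complexes.

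Each stage is represented by 1 list that pools its 3 samples and gives positions without a score or a read count. The depth of the samples is unknown and no value per replicate could be given, so width was the only size that a region had, and no difference between the stages could be set against the spread between replicates. Intervals given with shares are 95% Wilson intervals, and those of differences of shares are Newcombe intervals; both cover counting error over regions only. Positions are on build dm6, and genes are those of a RefSeq table of the same assembly. The labels do not say how reads that match several places were treated, which bears on repeats and on near-identical gene copies.

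Most MOF regions lay on the X at both stages. The X held 526 of the 613 regions at 11-12 h and 475 of the 517 at 3-4 h, the large autosomal arms held 82 at 11-12 h and 40 at 3-4 h, the Y held 5 at 11-12 h and 2 at 3-4 h, and chromosome 4 held none at either stage. On the X they covered 3.68 Mb at 11-12 h and 3.33 Mb at 3-4 h, which is 15.7% and 14.2% of the X. On the autosomal arms they covered 127 kb at 11-12 h and 83.9 kb at 3-4 h, or 0.117% and 0.0772% of those arms.

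On the X the list of 11-12 h contained nearly the whole list of 3-4 h and added to it. At 11-12 h, 443 of 526 regions were kept (84.2%, 80.9 to 87.1) and 83 were gained (15.8%, 12.9 to 19.1). Of the 475 regions of 3-4 h, 459 were kept (96.6%, 94.6 to 97.9) and 16 were lost (3.37%, 2.08 to 5.4). When the X was cut into stretches of 1 Mb, the share under MOF was higher at 11-12 h in all 23 full stretches, by 0.0524 to 4.33 points. It ran between 4.59% and 30.9% at 11-12 h and between 4.37% and 26.6% at 3-4 h. Gained regions were found in 21 of the 23 stretches, with at most 9 in any of them.

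Gained and lost regions were narrow. Gained X regions had a median width of 1.76 kb, 18 of the 83 had the smallest width in the list, 1000 bp, and 51 were under 2 kb wide. The kept regions had a median width of 6.48 kb at 11-12 h and 5.60 kb at 3-4 h. Lost X regions had a median of 1000 bp, 10 of the 16 were exactly that wide and 15 were under 2 kb. Together the gained regions came to 181 kb and the lost ones to 21.1 kb. The narrowest kept overlap at 11-12 h was 45 bp, at a 1.00-kb region on c12.1, and the gained region nearest to a 3-4 h region, at CG17065, missed it by 5 bp. The lost region nearest to a region of 11-12 h, at vilya, missed it by 169 bp.

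**Figure D1:**
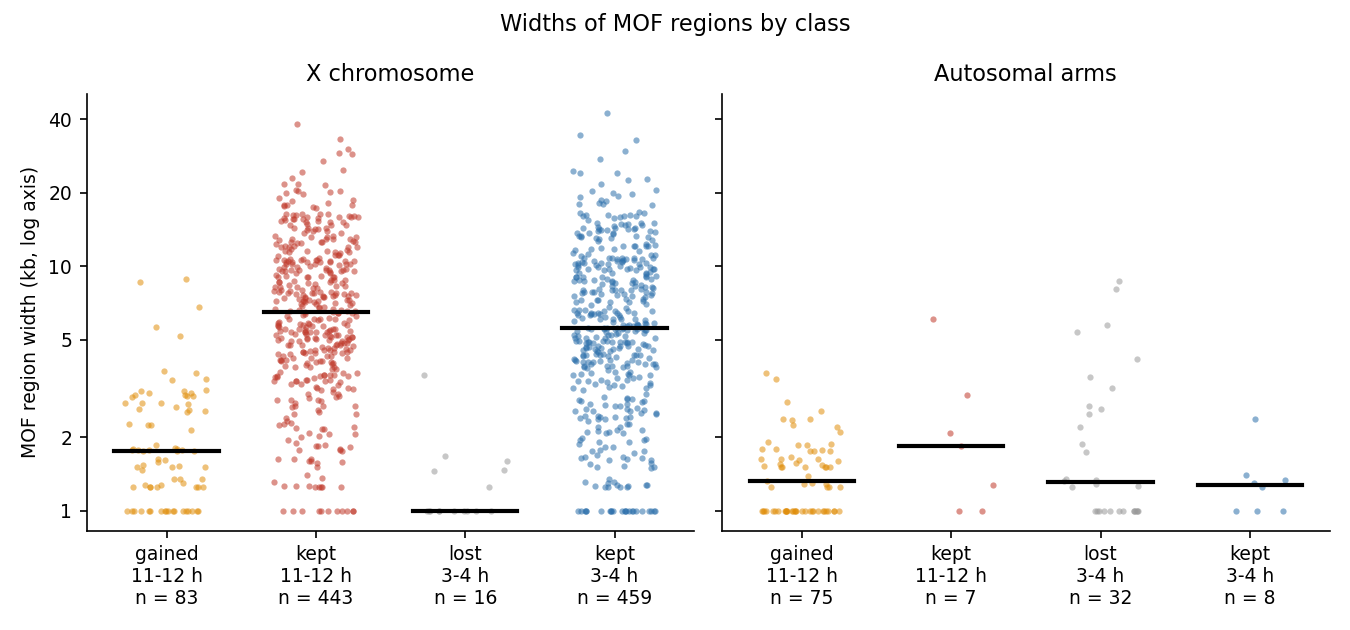
Width of every MOF region in kb on a log axis, on the X (left) and on the autosomal arms (right), by class and stage; each point is a region and bars mark medians. On the X the gained regions, with a median of 1.76 kb, lie below the kept ones of 11-12 h, with a median of 6.48 kb, and 10 of the 16 lost regions sit at 1000 bp.

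Counted in bases, most of the added cover lay beside regions that were already there. The stages shared 3158 kb on the X, which was 85.7% of the bases at 11-12 h and 94.7% of those at 3-4 h. Of the 526 kb found at 11-12 h only, 181 kb (34.3%) lay in gained regions and 346 kb (65.7%) extended or joined kept ones. Of the 176 kb found at 3-4 h only, 21.1 kb (12.0%) lay in lost regions and 155 kb (88.0%) was trimmed from kept ones.

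The widest gained region on the X was 8.90 kb wide, at X:3697963-3706860, and took in an end of Mnt, which encodes a Max-binding antagonist of Myc. It covered 12.4% of the gene, lay 73928 bp from any MOF region of 3-4 h, and was the only gained region on the X that overlapped an MSL2 region, 2.50 kb wide and also listed at 11-12 h alone. The next was 8.62 kb over na, the sodium leak channel gene, of which it covered 73.1%. Regions of 6.81 kb at CG14441, 5.65 kb at the forkhead gene CHES-1-like and 5.20 kb at Imp, which encodes an mRNA-binding protein, followed. These 3 lay inside or across genes of 19.9 to 36.4 kb, with 32.4%, 20.9% and 14.3% of the body covered.

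The other gained regions among the 10 widest were 3.13 to 3.74 kb wide. They lay at Tmf, at kat80, which encodes the p80 subunit of the microtubule-severing enzyme katanin, at f (forked, an actin-bundling protein of the bristles), at CG5877 and at CG3847. None of these 5 overlapped MSL2, and all overlapped H4K16ac and H3K36me3, the mark of transcribed gene bodies, at both stages. Of the 5 gained regions of 4 kb or more, 0 overlapped H4K16ac of 3-4 h on sonicated chromatin. On MNase-cut chromatin 4 of the 5 did at 3-4 h, all but the one at Mnt. H3K36me3 of 3-4 h overlapped 4 of the 5, all but the one at CHES-1-like. CG11122 held 3 gained regions of 1.28 to 2.95 kb, which together covered 47.7% of its body against 0% at 3-4 h.

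The gained regions lay at varied distances from existing ones. To the nearest MOF region of 3-4 h the median distance of the 83 gained regions was 7.64 kb; 21 were within 1 kb, 38 within 5 kb and 17 over 20 kb away. The farthest was a 1000-bp region near the base of the X at X:23402667-23403666, 295 kb from any MOF region of 3-4 h, 110937 bp from the nearest gene and under no region of any other list. Of the 83, 82 touched a protein-coding gene and 55 (66.3%, 55.6 to 75.5) took in the start or the end of one, against 381 of 443 kept regions (86.0%, 82.5 to 88.9). Among regions under 2 kb the order was the other way, 33 of 51 gained (64.7%, 51.0 to 76.4) against 17 of 40 kept (42.5%, 28.5 to 57.8), with overlapping intervals. The gene table gives no strand, so starts and ends were counted together.

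The lost X regions were few. The widest, 3.60 kb at X:12627573-12631170, spanned Aven and CG2540, both covered in full at 3-4 h and not at all at 11-12 h, and lay 7615 bp from the nearest MOF region of 11-12 h. The others were 1.00 to 1.67 kb wide and included sites in CG32767, CG15337, Ir8a, which encodes a co-receptor of the ionotropic olfactory receptors, and Pp2B-14D, a catalytic subunit of calcineurin. A different part of Pp2B-14D gained a 1.76-kb region at 11-12 h, 812 bp away. Of the 16 lost regions, 8 lay within 1 kb of an MOF region of 11-12 h, and the median distance was 1.17 kb. They took in a gene end in 7 of 16 cases (43.8%, 23.1 to 66.8) and lay inside 1 gene body in the other 9.

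Kept X regions were sorted by how the lists matched. In 318 clusters 1 region of 11-12 h matched 1 of 3-4 h, in 41 a single region of 11-12 h spanned several of 3-4 h (merged, 41 regions for 90), in 25 a single region of 3-4 h was matched by several of 11-12 h (split, 58 regions for 25), and 12 clusters had several of both. Merged clusters covered 563 kb at 11-12 h and 503 kb at 3-4 h, 1.12 times as much. Split clusters covered 337 kb at 11-12 h and 363 kb at 3-4 h, 0.928 times as much. The breaks were short. The 49 breaks of 3-4 h that were closed at 11-12 h had a median of 343 bp, and 44 were at most 1 kb; the 33 breaks that appeared at 11-12 h had a median of 396 bp, and 27 were at most 1 kb.

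The merged clusters with the longest regions were named for Top1, Spg7, pcx, Polr2A, ebo, CG5004, mahe, Polr3A, Top3beta and shtd. At Top1, the DNA topoisomerase I gene, 1 region of 30.1 kb at 11-12 h stood against regions of 24.0 and 6.32 kb at 3-4 h. At Polr2A, which encodes the largest subunit of RNA polymerase II, 1 region of 24.4 kb stood against 3 of 7.79, 2.62 and 13.0 kb. Both clusters were nearly equal in total length at the stages, with ratios of 0.994 and 1.04, and so were Spg7 (paraplegin, 1.06), pcx (1.08), ebo (1.03), CG5004 (1.05) and Top3beta (1.01). The ratio was higher at mahe, an RNA helicase gene, where a region of 20.4 kb at 11-12 h spanned regions of 9.80 and 4.61 kb at 3-4 h and the 3291-bp break between them. At Polr3A, a subunit of RNA polymerase III, 19.1 kb stood against 1.94, 7.89 and 5.89 kb, and at shtd, a subunit of the anaphase-promoting complex, 17.6 kb stood against 4 regions of 1.00 to 9.35 kb.

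The gene of MOF itself lay in a merged cluster. Its body of 3.01 kb was covered in full at both stages, by a region of 14.7 kb at 11-12 h and by one of 11.0 kb at 3-4 h that had a neighbour of 2.45 kb. MSL2 regions of 3505 bp at 11-12 h and 2554 bp at 3-4 h lay across an end of it.

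The longest MOF region of 3-4 h was in a split cluster. At HUWE1, which encodes a ubiquitin ligase, regions of 33.3 and 9.18 kb at 11-12 h stood against 1 of 42.3 kb at 3-4 h, with a break of 468 bp. At Rbcn-3A, a regulator of the vacuolar proton pump, 4 regions of 1.77 to 10.5 kb stood against 1 of 27.4 kb. At bif, which encodes an actin-binding protein, the regions of 11-12 h, 1.00, 5.88 and 18.6 kb wide, left out 6397 bp at one side of the 33.0-kb region of 3-4 h, and the total ratio was 0.771. The other split clusters named by length, at Elys (a nucleoporin), pcm (an exoribonuclease) and bbx, had ratios of 0.938, 0.969 and 0.886. Clusters with several regions at both stages included trr, which encodes an H3K4 methyltransferase (25.1 kb at 11-12 h, 24.4 kb at 3-4 h), and dome, the receptor of the JAK/STAT pathway (23.2 kb at 11-12 h, 23.5 kb at 3-4 h).

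Among the 318 regions matched 1 to 1, the width ratio was highest for those narrow at 3-4 h and near 1 for those wide at 3-4 h. Over all of them the ratio of the width at 11-12 h to that at 3-4 h had a median of 1.03 (quartiles 0.971 and 1.18); 197 were wider at 11-12 h, 119 narrower and 2 equal. In 275 (86.5%) the widths were within 1.5 times of each other, 34 were more than 1.5 times wider at 11-12 h and 9 were narrower by more than that. The median ratio was 1.63 for the 43 regions under 2 kb at 3-4 h, 1.14 for 95 of 2 to 5 kb, 1.01 for 106 of 5 to 10 kb and 0.999 for 74 of 10 kb or more. Because the classes were cut on the width at 3-4 h, and no region can be under 1000 bp, narrow regions had more room to be wider. The width at 3-4 h is also the divisor of the ratio, and sorting by the width at 11-12 h was not done. The classes therefore cannot show that narrow sites widened with stage.

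**Figure D2:**
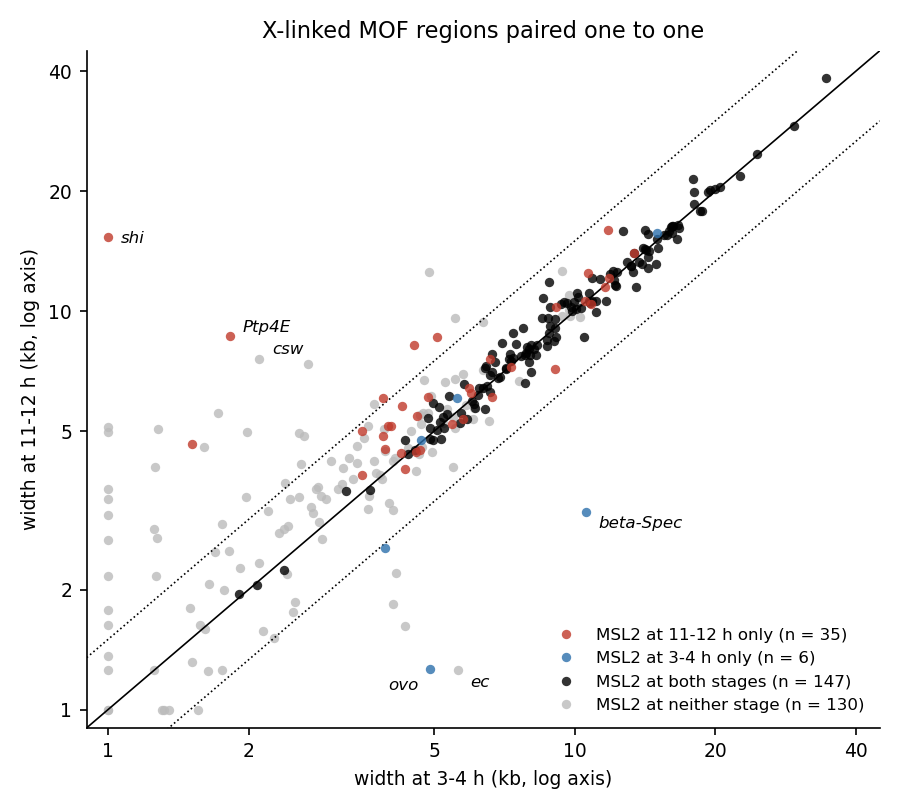
Width at 11-12 h (vertical) against width at 3-4 h (horizontal) of the 318 X regions matched 1 to 1, both in kb on log axes; colours give the stages at which the MOF region overlaps an MSL2 region, the solid line marks equal widths and the dotted lines a factor of 1.5. The 147 regions with MSL2 at both stages all lie within the dotted lines, while shi lies far above them and ovo, beta-Spec and ec lie below.

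Widths were close to equal at sites that overlapped MSL2 mononucleosomal regions at both stages. For those 147 the median ratio was 1.00 (quartiles 0.971 and 1.05), and all 147 were within 1.5 times. For the 35 with MSL2 at 11-12 h only, the median ratio was 1.13 (0.993 and 1.32); 25 were wider at 11-12 h, and 6 by more than 1.5 times. For the 130 with MSL2 at neither stage, it was 1.15 (0.971 and 1.41), with 28 wider and 6 narrower by more than 1.5 times. The 6 with MSL2 at 3-4 h only had a median ratio of 0.830. Among regions under 5 kb at 3-4 h the medians were 1.27 for 18 with MSL2 at 11-12 h only, 1.19 for 104 with MSL2 at neither stage and 0.993 for 13 with MSL2 at both stages. Among those of 5 to 10 kb the medians were alike, at 1.02 for 10, 1.01 for 24 and 1.01 for 71 in the same order. Another 63 of the 147 with MSL2 at both stages were 10 kb or more wide at 3-4 h. The part of width in these differences was not tested. Looking MSL2 up over the span of both MOF regions, in place of each stage's own region, gave the same 4 numbers of pairs.

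The gene with the largest ratio was shi, which encodes dynamin, the GTPase of vesicle scission. Its MOF region was 15.4 kb wide at 11-12 h, at X:15893768-15909149, and 1.00 kb at 3-4 h, at X:15907117-15908116. At 11-12 h it covered 88.7% of the gene, and at 3-4 h it lay just past the gene and covered 0%. An MSL2 region of 2.00 kb lay within shi at 11-12 h, and none did at 3-4 h. H4K16ac on MNase-cut chromatin was listed there as 1 region of 70.9 kb at 11-12 h and as 4 regions of 1.96 to 5.25 kb at 3-4 h. H3K36me3 regions over or next to the gene were 1000 to 6878 bp wide at 11-12 h and 1505 to 3094 bp at 3-4 h.

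The next ratios among named genes were at CG6041, CG43867, Ptp4E, DIP1, csw, CG1440, Zpr1, CG7556 and ewg. Ptp4E, a receptor tyrosine phosphatase, had 8.65 kb at 11-12 h and 1.82 kb at 3-4 h, also with MSL2 at 11-12 h only. csw, the SHP2-type phosphatase of receptor tyrosine kinase signalling, had 7.60 kb at 11-12 h and 2.11 kb at 3-4 h without MSL2 at either stage, and the covered part of its body was 26.2% at 11-12 h and 0.820% at 3-4 h. ewg, a transcription factor gene related to vertebrate NRF1, had 5545 bp at 11-12 h and 1719 bp at 3-4 h. The regions at CG6041, CG43867, CG1440 and Zpr1 were 3.39 to 5.13 kb wide at 11-12 h and 1.00 kb at 3-4 h.

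The smallest ratios were at ec, ovo and beta-Spec. At ovo, a zinc-finger gene of the germline and epidermis, the MOF region was 1265 bp wide at 11-12 h and 4899 bp at 3-4 h, and an MSL2 region of 2.00 kb was listed beneath it at 3-4 h only. At beta-Spec, the beta-spectrin gene of the membrane skeleton, it was 3.14 kb at 11-12 h and 10.6 kb at 3-4 h, again with a 2.00-kb MSL2 region at 3-4 h only. Ssu72, a phosphatase of the RNA polymerase II tail, had 1.84 kb at 11-12 h and 4.07 kb at 3-4 h, and Gr5a, the trehalose taste receptor, had 1.51 kb at 11-12 h and 2.27 kb at 3-4 h; neither had MSL2.

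The ec region lay beside roX1, the gene of a noncoding RNA of the MSL complex, at X:3857230-3862697. On the ec side the MOF region was 1255 bp wide at 11-12 h and 5622 bp at 3-4 h. Over roX1 itself it was 5142 bp at 11-12 h and 3600 bp at 3-4 h. MOF regions covered 90.7% of roX1 at 11-12 h and 67.2% at 3-4 h. The MSL2 entry at roX1 was a single subnucleosomal region of 200 bp at 11-12 h. roX2, the other such gene, was covered in full at both stages.

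The bases and regions that were added on the X were poor in MSL2 and rich in H4K16ac. An MSL2 mononucleosomal region of 11-12 h overlapped 1 of 83 gained regions (1.20%, 0.213 to 6.51) and 245 of 443 kept ones (55.3%, 50.6 to 59.9), a difference of -54.1 points (-58.8 to -47.0). With the MSL2 list of 3-4 h the counts were 0 of 83, with a Wilson interval reaching 4.42%, and 206 of 443 (46.5%). H4K16ac on MNase-cut chromatin overlapped 80 of 83 gained regions (96.4%) and 441 of 443 kept ones (99.5%) at 11-12 h. At 3-4 h, before the gained regions were listed for MOF, it overlapped 66 of 83 (79.5%, 69.6 to 86.8) and 427 of 443 (96.4%, 94.2 to 97.8). On sonicated chromatin at 3-4 h the counts were 61 of 83 (73.5%, 63.1 to 81.8) and 426 of 443 (96.2%, 93.9 to 97.6). H3K36me3 of 11-12 h overlapped 72 of 83 gained regions (86.7%) and 424 of 443 kept ones (95.7%).

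Width moved with these shares. The narrowest MSL2 mononucleosomal region was itself 2.00 kb wide, and among kept MOF regions the share with MSL2 was 1 of 40 under 2 kb, 8 of 71 at 2 to 4 kb (11.3%, 5.82 to 20.7) and 236 of 332 at 4 kb or more (71.1%, 66.0 to 75.7). Gained regions had 0 of 51, 0 of 27 and 1 of 5 in these classes, so below 4 kb the intervals of gained and kept regions overlapped. Only 5 gained regions were 4 kb or wider. H3K36me3 was over 40 of 51 gained regions under 2 kb (78.4%, 65.4 to 87.5) and 30 of 40 kept ones (75%, 59.8 to 85.8), so the gap over all regions was not seen under 2 kb. Under 2 kb, H4K16ac of 3-4 h on MNase-cut chromatin was over 40 of 51 gained regions (78.4%, 65.4 to 87.5). For kept ones it was 34 of 40 (85.0%, 70.9 to 92.9). At 2 to 4 kb it was 22 of 27 (81.5%, 63.3 to 91.8) and 67 of 71 (94.4%, 86.4 to 97.8). On sonicated chromatin the intervals overlapped under 2 kb. At 2 to 4 kb they did not, with 20 of 27 (74.1%, 55.3 to 86.8) and 69 of 71 (97.2%, 90.3 to 99.2). The part of width in the differences was not tested further.

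**Figure D3:**
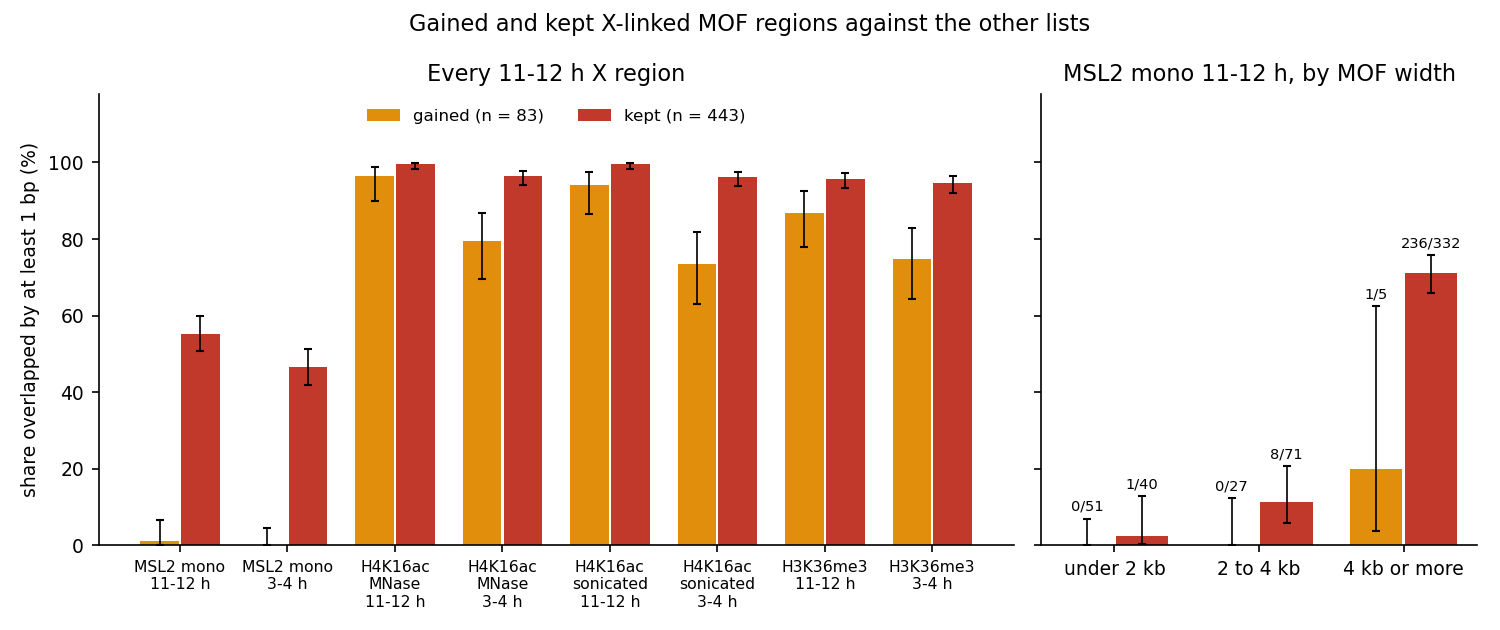
Share in percent of gained (orange) and kept (red) X-linked MOF regions of 11-12 h that overlap each other list by at least 1 bp (left), and the MSL2 mononucleosomal list of 11-12 h by the width of the MOF region with counts above the bars (right); error bars are 95% Wilson intervals. MSL2 overlaps 1.20% of gained and 55.3% of kept regions at 11-12 h, while H4K16ac overlaps 96.4% and 99.5%, and the MSL2 share of kept regions is 2.50% under 2 kb and 71.1% at 4 kb or more.

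Base by base, low MSL2 and high H4K16ac were seen in the cover of either stage alone. Of the bases under MOF at 11-12 h only, 2.44% lay in an MSL2 region of 11-12 h, against 39.95% of the shared bases. Of the bases found at 3-4 h only, 1.17% lay in MSL2 regions of 11-12 h and 3.88% in those of 3-4 h. The whole X had 5.48% of its length in MSL2 regions of 11-12 h. In H4K16ac regions on MNase-cut chromatin lay 96.7% of the bases found at 11-12 h only at 11-12 h and 55.2% at 3-4 h, against 99.3% and 86.4% of the shared bases. For the bases found at 3-4 h only these shares were 91.4% at 11-12 h and 80.7% at 3-4 h. The whole X had 32.7% of its length in such H4K16ac regions at 11-12 h and 16.7% at 3-4 h. In H3K36me3 regions of 11-12 h lay 62.7% of the bases found at 11-12 h only, 81.8% of the shared bases and 30.2% of the bases found at 3-4 h only.

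Most lost X regions overlapped H4K16ac, and fewer of them than of the kept ones overlapped H3K36me3. H4K16ac regions of 3-4 h on MNase-cut chromatin overlapped 13 of 16 (81.3%, 57.0 to 93.4), and those of 11-12 h, where MOF was no longer listed, overlapped 15 of 16. H3K36me3 regions of 3-4 h overlapped 4 of 16 lost regions (25.0%, 10.2 to 49.5) and 438 of 459 kept ones (95.4%, 93.1 to 97.0). Among regions of 3-4 h under 2 kb these were 3 of 15 lost (20%, 7.05 to 45.2) and 56 of 63 kept (88.9%, 78.8 to 94.5). With a gap of 1 kb allowed, 50% of the 16 lost regions had H3K36me3. MSL2 mononucleosomal regions of 3-4 h overlapped none of the 16, with a Wilson interval reaching 19.4%, and those of 11-12 h overlapped 1 of 16 (6.25%, 1.11 to 28.3).

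Of 2197 protein-coding genes on the X, MOF touched 1201 at 11-12 h, a share of 54.7%, and 1066 at 3-4 h, a share of 48.5%. At both stages 1048 (47.7%) were touched, 153 (6.96%) at 11-12 h only and 18 (0.819%) at 3-4 h only. At least 50% of the body was covered in 944 genes (43%) at 11-12 h and 840 (38.2%) at 3-4 h. Of the 153, 85 were reached by gained regions only, 61 by the growth of kept regions only and 7 by both; 18 were covered in full, and the median cover was 46.3% of the body. Of the 1048 genes touched at both stages, 380 had more of the body covered at 11-12 h, 239 less, and 429 were covered in full at both.

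The genes reached at 11-12 h only, ranked by covered bases, were shi (12.9 kb), na (8.08 kb), CG14441 (6.44 kb), CG11122 (5.89 kb), CHES-1-like (5.65 kb), Imp (5.20 kb), Mnt (3.71 kb), f (3.47 kb), CG8915 (3.45 kb) and CG5877 (3.43 kb). CG8915 overlaps f, and the same MOF region covers both. The genes reached at 3-4 h only had at most 1499 bp covered. They included CG15337 and Aven, covered in full, Dna2, a nuclease-helicase of DNA replication (1.00 kb, 26.3%), and fs(1)Ya, a protein of the nuclear envelope needed in the early embryo (0.305 kb, 13.3%).

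The 8 gene lists below were chosen with earlier results of these data known, and their counts are read against the shares touched among all protein-coding genes, 54.7% at 11-12 h and 48.5% at 3-4 h on the X and 1.22% at 11-12 h and 0.395% at 3-4 h on the autosomal arms. In the list of the MSL complex, its RNAs and Clamp, all 3 X-linked genes, mof, roX1 and roX2, were touched at both stages. None of the 5 autosomal genes of that list, msl-1, msl-2, msl-3, mle and Clamp, was touched at either stage. With autosomal shares this low, 0 of 5 does not set them apart. Of the NSL complex only wds, its X-linked member, was touched, and again none of 5 autosomal members; wds had 100% of the body covered at 11-12 h and 83.2% at 3-4 h.

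Of the 14 X-linked ribosomal protein genes, 10 were touched at 11-12 h and 7 at 3-4 h, the second count being close to the 48.5% of all X genes. RpL36, RpS28b and RpS10b, which code for proteins of the large and small ribosomal subunits, had 59.2%, 58.2% and 41.6% of the body covered at 11-12 h and 0% at 3-4 h, when the nearest MOF region ended 0.167, 0.750 and 0.0480 kb away. The median cover of the list was 60.4% at 11-12 h and 13.9% at 3-4 h, with RpL7A and RpS15Aa lower at 11-12 h. RpS14a and RpS14b, neighbouring near-identical copies, had none at either stage. Both were overlapped by regions of H3K36me3 and of sonicated H4K16ac at both stages. Whether reads were split between the copies was not tested.

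Of 8 genes long used in studies of dosage compensation, 5 were touched at 11-12 h and 6 at 3-4 h, and they differed in direction. The difference in count was r, with 0% of its body covered at 11-12 h and 0.824% at 3-4 h. The nearest MOF region of 11-12 h lay 0.06 kb from r. g, a subunit of the AP-3 adaptor, was covered over 94.7% of its body at 11-12 h and 51.0% at 3-4 h, with MSL2 at 11-12 h only. Zw, glucose-6-phosphate dehydrogenase, was covered over 12.0% at 11-12 h and 60.9% at 3-4 h. Pgd, a later enzyme of the pentose phosphate pathway, was covered over 23.5% at 11-12 h and 47.8% at 3-4 h. Neither Zw nor Pgd had MSL2. car was covered over 95.8% at 11-12 h and 100% at 3-4 h, and ras over 76.2% at 11-12 h and 65.4% at 3-4 h. The genes w and v had no cover at either stage.

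None of 11 early zygotic and sex determination genes of the X was touched at either stage, Sxl, the master switch of sex determination, included; the nearest MOF region lay 0.623 kb from Sxl at 11-12 h and 0.850 kb at 3-4 h. Of 11 neural genes 3 were touched at 11-12 h and 2 at 3-4 h, below the 54.7% and 48.5% of all X genes. The difference was para, with 0.398% of its body covered at 11-12 h and 0% at 3-4 h, when the nearest MOF region lay 0.222 kb away. elav, an RNA-binding protein of all neurons, was covered over 61.8% at 11-12 h and 60.9% at 3-4 h, and the cell adhesion gene Nrg over 23.0% at 11-12 h and 18.7% at 3-4 h. Of 5 muscle and attachment genes 2 were touched at 11-12 h and 3 at 3-4 h, near the shares of all X genes, and the difference was wupA, with 0% of its body covered at 11-12 h and 1.08% at 3-4 h. mys, a beta integrin, was covered over 86.7% at 11-12 h and 85.6% at 3-4 h. Of 12 signalling and polarity genes 10 were touched at both stages, among them arm (beta-catenin; 86.7% at 11-12 h, 79.1% at 3-4 h) and dsh (dishevelled; 90.2% at 11-12 h, 99.3% at 3-4 h), while N and sog had none.

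**Figure D4:**
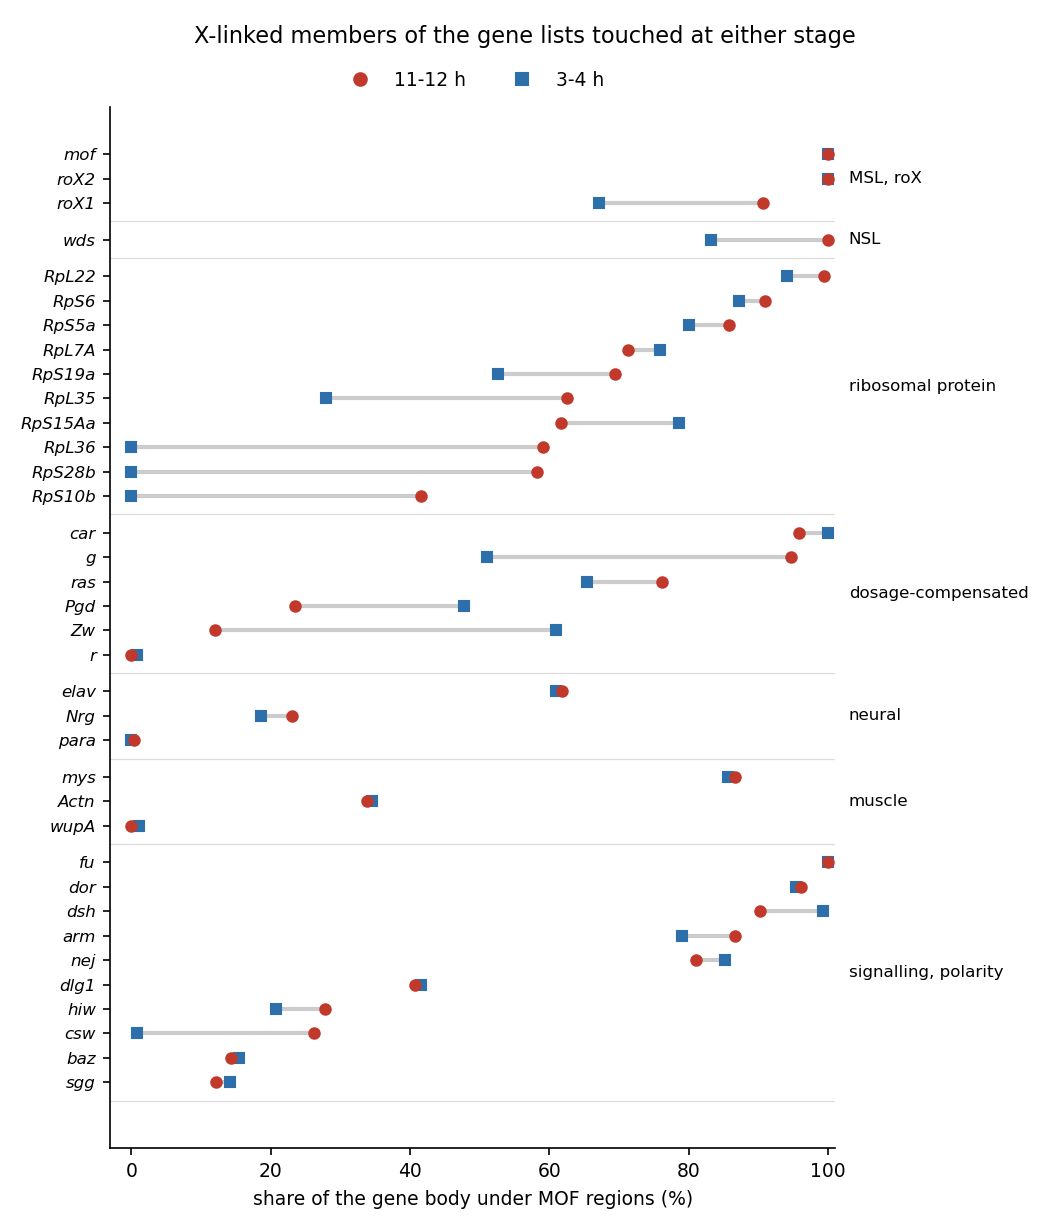
Share of the gene body under MOF regions in percent at 11-12 h (red circles) and 3-4 h (blue squares) for the X-linked list members touched at either stage, grouped by list; grey lines join the stages of a gene. RpL36, RpS28b and RpS10b are at 0% at 3-4 h, g and csw are higher at 11-12 h, and Zw and Pgd are lower.

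On the autosomal arms the lists of the stages had few regions in common. Of 82 regions at 11-12 h, 75 were gained (91.5%, 83.4 to 95.8), and of 40 at 3-4 h, 32 were lost (80.0%, 65.2 to 89.5). By arm, 11-12 h and 3-4 h had 19 and 3 regions on 2L, 11 and 11 on 2R, 15 and 3 on 3L, and 37 and 23 on 3R. They touched 142 (1.22%) of 11645 autosomal protein-coding genes at 11-12 h and 46 (0.395%) at 3-4 h; 136 (1.17%) were touched at 11-12 h only, 40 (0.343%) at 3-4 h only and 6 (0.0515%) at both. At least 50% of the body was covered in 58 (0.498%) at 11-12 h and 12 (0.103%) at 3-4 h.

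The autosomal regions of 11-12 h only and of 3-4 h only lay in different parts of genes. Of the 75 gained, 66 took in an end of a protein-coding gene (88.0%, 78.7 to 93.6), 56 touched more than 1 gene and 3 lay inside a single body (4.00%, 1.37 to 11.1). Of the 32 lost, 10 took in an end (31.3%, 18.0 to 48.6) and 22 lay inside a body (68.8%, 51.4 to 82.0). Among regions under 2 kb the shares at an end were 61 of 65 gained (93.8%, 85.2 to 97.6) and 6 of 21 lost (28.6%, 13.8 to 50.0). These intervals cover counting error over regions only. Some lost regions lay in the same gene, as at Bruce, so regions were not independent.

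They also differed in the marks they overlapped. H4K16ac of 11-12 h on MNase-cut chromatin was over 51 of 75 gained regions (68.0%, 56.8 to 77.5) and 6 of 32 lost ones (18.8%, 8.89 to 35.3), and that of 3-4 h over 34 (45.3%, 34.6 to 56.6) and 7 (21.9%, 11.0 to 38.8). On sonicated chromatin the stages of the mark were in the other order for gained regions: H4K16ac of 11-12 h was over 40 of 75 gained (53.3%, 42.2 to 64.2) and 8 of 32 lost ones (25%, 13.3 to 42.1), and that of 3-4 h over 59 (78.7%, 68.1 to 86.4) and 12 (37.5%, 22.9 to 54.7). The 2 H4K16ac lists differed in the same way over the autosomal arms as a whole. Sonicated regions covered 2.30% of the arms at 11-12 h and 3.98% at 3-4 h, and MNase regions 1.60% at 11-12 h and 0.931% at 3-4 h. H3K36me3 regions, which covered 13.2% of the autosomal arms at 11-12 h and 13.1% at 3-4 h, overlapped 67 of 75 gained regions at 11-12 h and all 32 lost regions at both stages. MSL2 mononucleosomal regions touched 1 of the 75, at CG1142, and, at 3-4 h, 1 of the 32, at Alh.

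**Figure D5:**
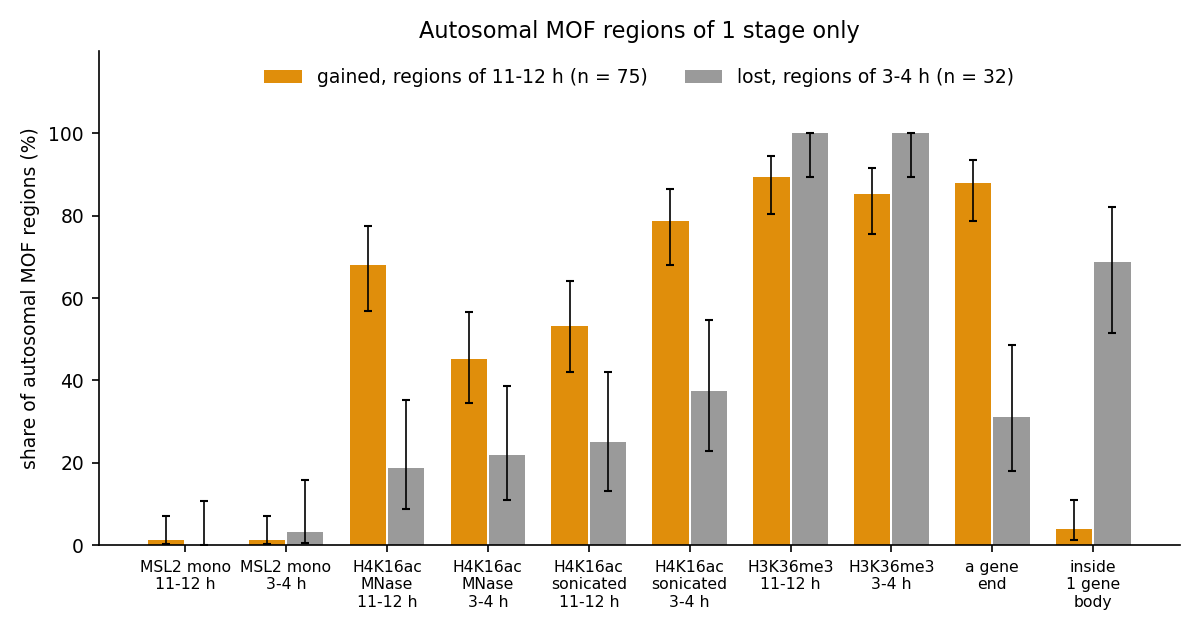
Share in percent of autosomal MOF regions found at 11-12 h only (orange) and at 3-4 h only (grey) that overlap each other list, that take in an end of a protein-coding gene, or that lie inside 1 gene body; error bars are 95% Wilson intervals. Gene ends were taken in by 88.0% of the gained and 31.3% of the lost regions, and H4K16ac of 11-12 h on MNase-cut chromatin overlapped 68.0% and 18.8%.

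The widest autosomal regions with a gene were at different genes at the stages. At 11-12 h they were 3.46 kb at PolD2, a DNA polymerase delta subunit, on 3L, 2.37 kb at CG7183 on 3R and 2.25 kb at Tap42, a regulator of protein phosphatase 2A, on 2L; all were gained, touched 2 or more genes and overlapped H4K16ac and H3K36me3 at both stages. At 3-4 h they were 8.72 kb at Alh, the fly homologue of AF10, and 8.05 kb inside Bruce, which encodes a large ubiquitin-conjugating inhibitor of apoptosis. Bruce held 4 of the 32 lost regions and was covered over 90.1% of its body at 3-4 h and 0% at 11-12 h. It was in H3K36me3 regions at both stages, and its 3 widest MOF regions overlapped no H4K16ac region of either stage or preparation.

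The cell cycle gene E2f1 had a lost region of 5.78 kb, ear, the fly homologue of ENL and AF9, one of 3.17 kb, AGO1, the Argonaute of the microRNA pathway, one of 2.70 kb, and syd, a kinesin adaptor, one of 2.49 kb. Each of these 4 lay wholly inside its gene. Lost regions of 5.41 kb at CG1965 and 2.60 kb at GCC88 each touched 2 protein-coding genes. They lay 839 and 605 bp from the nearest MOF region of 11-12 h. dom, which encodes a chromatin-remodelling ATPase, held 2 more lost regions.

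The autosomal regions present at both stages were of 2 kinds. In gene-bearing parts 4 sites were kept, at mRpL28 on 2L and at CG1965, CG10068 and CG34149 on 3R, 1.00 to 1.83 kb wide at 11-12 h and 1.00 to 1.40 kb at 3-4 h; on 2L most of the region of 3-4 h lay in the gene next to mRpL28. The others formed a cluster near the base of 3R, before the first annotated gene of that arm, which starts at 567076. There 9 regions between 86527 and 122814 covered 25.9 kb at 11-12 h, and 4 regions between 96424 and 107399 covered 5.99 kb at 3-4 h. No region of any other list overlapped them.

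On the Y more was covered at 11-12 h as well. It held 5 regions between 1417726 and 1457056, 35.2 kb in all, at 11-12 h and 2 between 1444443 and 1448742, 2.76 kb in all, at 3-4 h. Both regions of 3-4 h lay within the 13.9-kb region of 11-12 h that ends the row. They touched no annotated gene and no region of another list.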

How the data were processed

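The authors deposited 12 lists of regions, each with chromosome, start and end and no other value. The sample descriptions point every replicate of a group to the same list. Per the submitters' processing notes, Bowtie2 2.2.9, SAMtools and HOMER were used with build dm6; for the role and settings of each, the use of inputs and the pooling of replicates, the entry is: not given in the sources used here. A deposited region is thus a position whose width follows from settings that are unknown, and neighbouring regions may be joined or broken by them. The authors' lists give no sequencing depth.

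Overlaps, clusters, covered bases and gene bodies were computed with Python 3.11.15, numpy 2.4.6, pandas 2.3.3 and scipy 1.17.1, and figures with matplotlib 3.10.9. Overlap and cover matched a base-by-base count on simulated data in 20 of 20 simulations. A region was named by the gene it overlaps most, else by the nearest. The genes named were those of the 10 regions or clusters ranking highest by width, or by width ratio, in each class, and the list members. CG1142, c12.1, CG17065, CG8915, dom and the farthest gained region were named after their values were seen. The members and lists were chosen with earlier results of these data known. Sequences of promoters were not used here. No test between samples was possible with 1 list per stage.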

Additional observations from a re-analysis of the deposited data

How the results depend on the processing

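No paired analysis was possible because each list pools the replicates of its group; for the same reason the lists could not be recomputed without each replicate. Counting only gene starts was not run, since the gene table gives no strand. Of 130 alternatives for 57 values, 82 stayed within 1.5 times a count or inside the interval of a share or median, and 48 moved. Whether an alternative changed the direction of a difference was not scored. Width classes, bases in place of regions, MSL2 over the joint span and the autosomes without the base of 3R were chosen after seeing the data.

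On the X, gained regions numbered 83; with the widest 50% of each list, and likewise with regions within 1 kb joined, they numbered 52. Lost regions numbered 16, but 8 with a gap of 1 kb allowed or with the widest 50%, 10 with regions of at least 2 kb and 9 with regions joined. Kept regions were 252 at 11-12 h and 247 at 3-4 h with the widest 50%. With regions joined, merged, split and complex clusters numbered 26, 10 and 2, and complex clusters 4 with overlap of 50% of the shorter region. The X share of regions, 86.5% at 11-12 h and 92.2% at 3-4 h, was 96.7% and 97.5% by covered length and 97.1% at both stages with regions of at least 2 kb. Without the base of 3R, 4 autosomal regions were kept at both stages. By width (under 2 kb, 2 to 4 kb, 4 kb or more), gained X regions overlapped MSL2 at 0%, 0% and 20.0%, and from 2 kb on they overlapped both H4K16ac lists and H3K36me3 at 100%. Kept ones overlapped MSL2 at 2.50%, 11.3% and 71.1%, both H4K16ac lists at 95%, 100% and 100%, and H3K36me3 at 75%, 90.1% and 99.4%. With a gap of 1 kb allowed, 50.0% of lost regions had H3K36me3. With at least 50% of the gene body required, 30 X genes were covered at 3-4 h only, and the lists had 3 dosage compensation genes at 11-12 h, and at 11-12 h and 3-4 h 1 and 1 neural, 1 and 1 muscle and 5 and 5 signalling genes.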
